A study of Mus musculus with 18 samples.

Results

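Mouse naive CD4 T cells lacking both genomic clusters that encode miR-23, miR-27 and miR-24 (DKO) were compared with wild-type naive CD4 T cells (WT). The comparison covered every gene row with an RPKM (reads scaled to transcript length and library size) of 1 or more in at least 3 of the 6 libraries, which kept 10363 of the 23953 rows of the table. The rule used levels in both genotypes together and no difference between them. Only 8 rows passed through the DKO libraries alone and 7 through the WT libraries alone, and of the 6 values that decide, ranked from the top, number 3 was 1.00 RPKM for Pkd1l3, just inside the threshold, and 0.998 RPKM for BC030307, just outside it.

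Each genotype had 3 libraries, numbered replicates 1 to 3, from C57BL/6 mice. Naive CD4+CD25- cells had been sorted by flow cytometry, and total RNA that retained the small RNAs went into Illumina TruSeq libraries. The genotype fields read "DKO Tg" and "WT Tg", and the deletion in DKO was restricted to T cells. The sources used here do not give the Cre driver, the age of the mice, the meaning of Tg in these 2 fields, or whether each library came from a separate animal, so that p-values measure the spread between libraries, part of which may be technical. Sex-linked transcripts differed between replicate numbers and not between genotypes: replicate 1 of both genotypes had Ddx3y at 52.5 (DKO) and 48.7 RPKM (WT) and Xist under 0.03, and replicates 2 and 3 of both had Xist between 25.1 and 76.2 RPKM.

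MicroRNAs are short RNAs that guide Argonaute proteins to messenger RNAs, mostly through pairing of the seed (bases 2 to 8 of the microRNA) with the 3′ untranslated region (3′ UTR), and so lower the level or translation of the targets. The paralogous miR-23a and miR-23b clusters each give rise to a miR-23, a miR-27 and a miR-24. In T cells these microRNAs are known for restraining effector differentiation and cytokine production. Naive T cells are resting cells that have not met antigen. They carry low basal activity of the type I interferon pathway, in which the receptor signals through transcription factors such as STAT2 and IRF9 to interferon-stimulated response elements (ISREs) in promoters of antiviral genes.

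Of the mature microRNAs removed in DKO, those below are shown with the seed in capitals, since the seed defines the target sites that were searched. The set also includes miR-23b-3p, which is not shown. The sequences are RefSeq's, and their positions are on GRCm38.p6. The miR-23a, miR-27a and Mir24-2 loci are on the plus strand of chromosome 8, at 84208563 to 84208583, 84208727 to 84208747 and 84208875 to 84208896. The miR-27b and Mir24-1 loci are on the plus strand of chromosome 13, at 63300760 to 63300780 and 63301251 to 63301272. Mir24-1 and Mir24-2 give the same miR-24-3p, and the seeds of miR-27a-3p and miR-27b-3p are identical.
miR-23a-3p: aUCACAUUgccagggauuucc
miR-27a-3p: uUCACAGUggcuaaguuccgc
miR-27b-3p: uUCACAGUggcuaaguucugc
miR-24-3p: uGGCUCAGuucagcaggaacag

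The hairpins of the first cluster were lower in DKO for 2 of 3, at levels of a few steps (described below) in these long-RNA libraries. Mir24-2 was listed at 0 in all 3 DKO libraries and stood at 34.5, 46.0 and 18.9 RPKM in WT replicates 1 to 3. Mir27a was 36.3, 39.5 and 0 RPKM in DKO and 131, 194 and 95.6 RPKM in WT. For both hairpins every DKO library lay below every WT library. Mir24-2 passed the level filter through the WT libraries alone, so that its lack of overlap was fixed by the filter. Mir23a was 0, 0 and 76.1 RPKM in DKO and 280, 82.8 and 0 RPKM in WT, so that the genotypes overlapped and the hairpin did not separate them.

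Values of a short row move in steps, and after correction for relative depth the WT values of Mir24-2 were whole multiples 2, 3 and 1 of a common step, and those of Mir27a 3, 5 and 2, with 1, 1 and 0 in DKO. The largest distance from a whole number was 5.62e-05 steps for Mir24-2 and 3.30e-06 for Mir27a. The difference in these hairpins therefore rested on small numbers of steps, and the reads per step are not known. Of the second cluster, Mir24-1 was listed at 0 in all 6 libraries, and Mir23b and Mir27b at 0 or at values too small for any read (at most 3.49e-08 RPKM), so that its loss could not be checked from them. Mir3074-1, a hairpin that overlaps Mir24-1 on the opposite strand, was listed at 0 in the 3 DKO libraries and stood at 115, 31.8 and 0 RPKM in WT. Whether reads were assigned by strand is not stated, so that signal of the 2 overlapping hairpins cannot be told apart.

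The host gene of the second cluster, 2010111I01Rik, which encodes an aminopeptidase, was higher in every DKO library. Its values were 45.8, 38.7 and 54.8 RPKM in DKO and 22.9, 32.4 and 20.0 RPKM in WT, a difference of 0.88 ± 0.27 (SE) in log2(RPKM + 1). The unadjusted p was 0.00617 and the adjusted p 0.9998 (limma, all 18 libraries of the series). Without DKO replicate 3 the difference was 0.75 ± 0.31. The gene also lay above all WT libraries in T cells over-expressing the whole cluster (cluster Tg, 61.3, 50.6 and 49.3 RPKM), miR-27 (miR-27 Tg, 49.6, 48.5 and 118 RPKM) or miR-24 (miR-24 Tg, 36.4 to 40.7 RPKM), and it was 24.2 to 28.2 RPKM in those over-expressing miR-23 (miR-23 Tg).

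DKO replicate 3 stood apart from the other 5 libraries before any comparison was made. On the first principal component (40.0% of the variance of the 6 libraries) it scored 63.5, and the others lay between -19.0 and -4.02. Its ribosomal protein genes averaged 1125 RPKM against 536 to 631 RPKM in the others, and it gave the highest or the lowest value of the 6 in 75.4% of the kept rows, against 14.3% to 34.9% for each other library. The number of genes at 1 RPKM or more was alike, 10103 in DKO replicate 3 and 10201 to 10355 in the others. Relative depth, estimated from rows below 0.1 RPKM, lay between 0.912 and 1.22 of that of WT replicate 1, and DKO replicate 3 was the deepest. WT replicate 3 scored 43.0 on the second component (18.8%), where the others lay between -15.6 and -2.89. Calls and most list medians are therefore given with and without DKO replicate 3, as are the differences of many named genes. A difference given once is that with all 3 DKO libraries, unless stated.

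The deviation of DKO replicate 3 followed gene class. In that library the median of the 80 ribosomal protein genes kept lay 0.75 above the WT mean in log2(RPKM + 1), and the median of the 78 nuclear-encoded subunits of the respiratory chain 0.72 above it. In DKO replicates 1 and 2 the same medians were -0.02 and -0.18 for ribosomal proteins and -0.06 and -0.12 for the respiratory chain. Genes of microRNA processing and silencing (17 kept, among them the helicases Ddx5 and Ddx17) had a median of -0.58 in DKO replicate 3 and 0.04 and 0.07 in the other DKO libraries. The 8 GIMAP GTPases, which support survival of naive T cells, had a median of 0.47 there and -0.07 and -0.06 in the others. These medians of DKO replicate 3 depended on the scaling. With quantile normalisation they were 0.48 for ribosomal proteins, 0.49 for the respiratory chain, -0.66 for microRNA processing and 0.01 for the GIMAP genes, and after rescaling without ribosomal protein and short RNA rows 0.52, 0.49, -0.81 and 0.23.

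The 16 dissociation and heat stress genes kept, mostly chaperones, had higher means in DKO in 16 of 16, and 0 separated the genotypes. Their median difference was 0.20, and 0.06 without DKO replicate 3, with 10 means higher. By library the median was -0.06 and 0.12 in DKO replicates 1 and 2 and 0.45 in DKO replicate 3 (0.17 there with quantile normalisation and 0.21 after rescaling). The chaperone Hspa1a was 38.7 RPKM in DKO replicate 3, 3.90 and 4.90 RPKM in the other DKO libraries and 6.26 to 7.71 RPKM in WT.

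**Figure D1:**
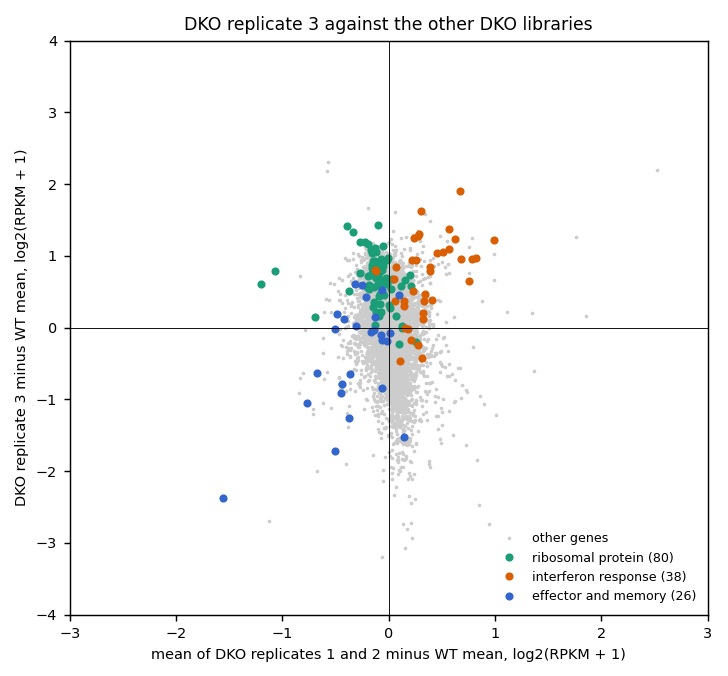
Difference from the mean of the 3 WT libraries in log2(RPKM + 1) for DKO replicate 3 (vertical axis) against the mean of DKO replicates 1 and 2 (horizontal axis), for the 10108 genes left after short RNA rows were set aside (2 lie beyond the axes). Most interferon genes (orange) lie right of 0 on the horizontal axis and most effector and memory genes (blue) left of it, while ribosomal protein genes (green) lie high for DKO replicate 3 alone.

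Across all genes the loss of both clusters gave no call. In limma, with the spread per gene taken from all 18 libraries, 0 of 10363 rows (0%) passed an adjusted p of 0.05, and the smallest adjusted p was 0.9998. At an unadjusted p under 0.05 there were 69 rows (0.666%), 49 higher (0.473%) and 20 lower (0.193%) in DKO. Without DKO replicate 3 there were again 0 calls (0%), with 29 rows higher (0.28%) and 16 lower (0.154%) at an unadjusted p under 0.05. The smallest adjusted p was 0.108, for Dclk2, a doublecortin-like kinase. With all 3 DKO libraries the median standard error of a difference was 0.20. A change of 1 on the log2 scale or more was measured in 124 rows, but in only 11 of the 10108 that are not short RNAs. The spread depended on a library outside this comparison. Leaving miR-27 Tg replicate 3 out of the fit lowered the median standard error to 0.14. Rows at an unadjusted p under 0.05 then numbered 213 (2.055%), with 0 calls (limma). With array weights, which weight each library by its spread, they numbered 466 (4.497%), with 3 calls. With no difference at all, a share of about 0.05 of the rows would reach such a p. Both shares lie below that, so the larger counts are not evidence of more differences. Because the spread depended on that library, the 0 calls of the main fit are not evidence that the genotypes are alike.

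In a fit of the 6 libraries alone 4 rows (0.0386%) were called, and all 4 are short RNAs whose values are small multiples of a step. Mir6937 (186, 203 and 183 RPKM in DKO), Mir7016 (196, 213 and 95.9 RPKM) and the small Cajal body RNA Scarna2 (297, 647 and 583 RPKM) were each listed at 0 in all 3 WT libraries, and Mir24-2 was called lower. These 3 rows had 1, 1 and 1, then 2, 2 and 1, then 1, 2 and 2 steps in the DKO libraries, and the reads per step are not known. All 4 called rows were listed at 0 throughout 1 genotype and passed the level filter through the other alone. Their lack of overlap was therefore fixed by the filter, and the calls are no support for a difference. With short RNA rows left out, 0 of 10108 genes were called in either fit.

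Dclk2 was 6.77, 5.41 and 2.79 RPKM in DKO and 2.19, 2.37 and 2.24 RPKM in WT. Every DKO library lay above every WT library, and DKO replicate 3 lay closest to WT. The difference was 0.81 ± 0.21 with all 3 DKO libraries and 1.11 ± 0.16 without replicate 3 (unadjusted p = 1.04e-05, adjusted p = 0.108, limma). Cd1d2, an antigen-presenting molecule for lipids and a near copy of Cd1d1, was 2.69, 2.24 and 1.75 RPKM in DKO and 0.619, 0.414 and 1.30 RPKM in WT. The difference was 0.88 ± 0.22, and 0.99 ± 0.25 without replicate 3. Reads may be shared between the 2 copies, and Cd1d1 itself was 19.6 to 27.8 RPKM in DKO and 22.4 to 25.5 RPKM in WT.

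Since no gene passed the test, gene lists are described by how many members had all 3 DKO values on one side of all 3 WT values. Over all kept rows, 259 (2.50%) had every DKO value above every WT value and 227 (2.19%) below. Without DKO replicate 3 these numbers were 833 (8.04%) and 1020 (9.84%). No member of any list below was called in either fit with all genotypes.

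Interferon-response genes stood higher in DKO, although no single member passed the test. The table holds 40 genes of the list, of which 38 were kept, none of them through the DKO values alone, and 26 of the 38 lay above WT in every DKO library, against 2.5% of all rows, and 0 lay below. The median difference was 0.43, or 1.35-fold, against 0.01 over all rows. By library the medians were 0.28, 0.35 and 0.79 in DKO replicates 1, 2 and 3 and 0.04, -0.11 and 0.06 in WT replicates 1, 2 and 3. Without DKO replicate 3, 31 of 38 lay above all WT values (background 8.04%), and the median was 0.31, or 1.24-fold. As a sum over the 40 genes the list came to 2219, 2231 and 3369 RPKM in DKO and to 1944, 1798 and 2003 RPKM in WT. DKO replicate 3 was also the highest library in the stress genes above, whose part in the interferon difference was not tested. In bulk RNA a larger share of responding cells and more RNA per cell cannot be told apart.

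The largest differences in the list were those of Ifit3, an interferon-induced effector with tetratricopeptide repeats, and Mx1, an antiviral GTPase, followed by Rsad2. Ifit3 was 12.97, 16.5 and 35.8 RPKM in DKO and 9.82, 6.35 and 10.9 RPKM in WT, with DKO replicate 3 far above the rest. Its difference was 1.08 ± 0.31 (unadjusted p = 0.00385, limma) and 0.67 ± 0.26 without that library. Mx1 was 6.46, 7.44 and 8.34 RPKM in DKO and 3.63, 2.42 and 3.04 RPKM in WT. The 3 DKO values of Mx1 lay close together and all above WT, with a difference of 1.07 ± 0.52 and, without replicate 3, 0.99 ± 0.60. For Mx2 the values were 5.63, 8.11 and 7.74 against 4.67, 2.81 and 3.29 RPKM (0.84 ± 0.25, and 0.78 ± 0.29 without replicate 3). Ifit1 was 19.8, 22.4 and 37.6 RPKM in DKO and 14.6, 11.2 and 16.3 RPKM in WT. It differed by 0.83 ± 0.24, and by 0.57 ± 0.22 without replicate 3. Ifit2, of the same family, overlapped between the genotypes (29.0 to 34.4 RPKM in DKO, 25.4 to 32.8 RPKM in WT).

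Rsad2, the antiviral radical-SAM enzyme viperin, was 5.49, 7.29 and 7.14 RPKM in DKO and 3.28, 2.85 and 3.35 RPKM in WT. This gap was not carried by DKO replicate 3, since the difference was 0.87 ± 0.34 with it and 0.82 ± 0.40 without it. The oligoadenylate synthetase family, which activates the RNA-degrading RNase L or senses viral RNA, had 5 of its 6 kept members above WT in every DKO library. Among them Oas2 was 39.0, 53.2 and 42.4 RPKM against 27.1, 24.6 and 28.4 RPKM (0.72 ± 0.23), Oasl2 differed by 0.83 ± 0.29, Oasl1 by 0.74 ± 0.29 and Oas1a by 0.54 ± 0.25. Oas1b overlapped. Members of the Ifit, Mx and Oas families are similar in sequence, and the sources used here do not give how shared reads were counted.

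**Figure D2:**
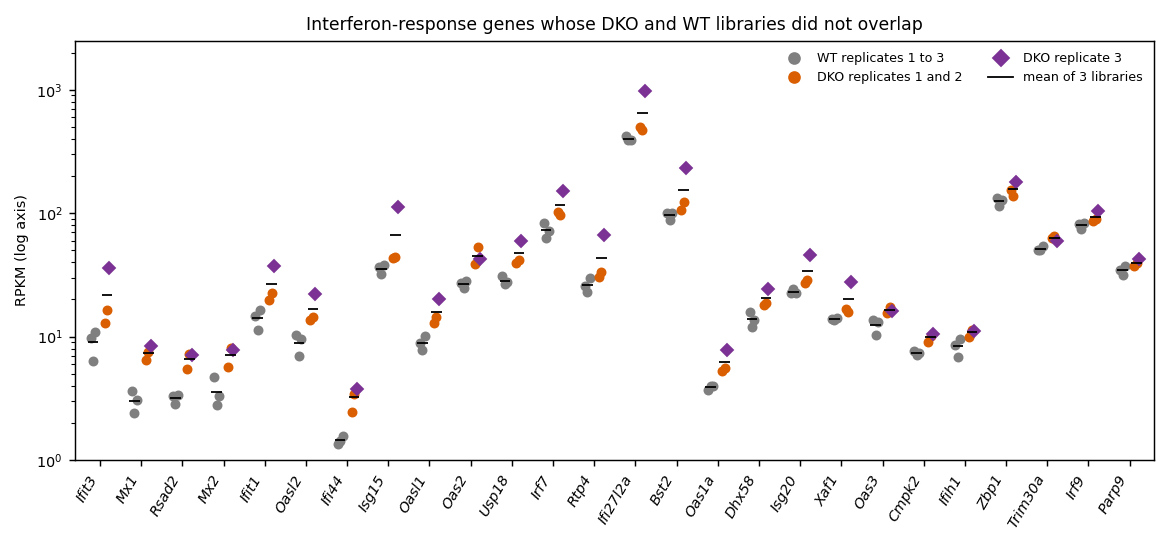
RPKM (log axis) of the 26 interferon-response genes whose DKO and WT libraries did not overlap, ordered by difference. Points are single libraries (grey WT, orange DKO replicates 1 and 2, purple diamonds DKO replicate 3) and bars are means of 3. In Isg15 and Ifi27l2a the purple diamond lies far above the other DKO libraries, and in Rsad2, Mx2 and Oas2 it lies among them.

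Of the ubiquitin-like modifier system, Isg15 was 43.7, 44.0 and 111 RPKM in DKO and 36.4, 32.0 and 38.0 RPKM in WT. Here DKO replicate 3 carried most of the difference, which was 0.74 ± 0.34 with it and 0.30 ± 0.28 without it. Usp18, the protease that removes ISG15 and dampens receptor signalling, was 39.7, 42.0 and 59.9 RPKM in DKO and 30.9, 26.5 and 27.7 RPKM in WT (0.69 ± 0.25, and 0.51 ± 0.27 without replicate 3). Ube2l6, the ISG15-conjugating enzyme, was not in the list and was picked after its values were seen. It was 2.98, 2.97 and 3.53 RPKM in DKO and 2.05, 2.05 and 1.06 RPKM in WT.

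RNA sensors and the transcription factors of the pathway were less uniform. Dhx58, a regulator of the RIG-I-like sensors, was 17.95, 18.8 and 24.5 RPKM in DKO and 15.96, 11.9 and 13.7 RPKM in WT. With 0.52 ± 0.13 (unadjusted p = 0.0012, limma) it had the smallest p of the higher genes whose libraries did not overlap. Its difference was 0.39 ± 0.12 without replicate 3. Irf7, the factor that amplifies interferon production, was 103, 96.6 and 150 RPKM in DKO and 84.1, 62.5 and 71.9 RPKM in WT (0.65 ± 0.20, and 0.46 ± 0.19 without replicate 3). Zbp1, a sensor of Z-form nucleic acid, differed by 0.32 ± 0.12 and Ifih1, the sensor MDA5, by 0.35 ± 0.25, both with no overlap.

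Irf9 and Stat2, which carry the signal of the receptor to these promoters, differed little. Irf9 was 86.2, 89.6 and 104 RPKM in DKO and 82.0, 74.2 and 83.1 RPKM in WT (0.22 ± 0.12). Stat2 overlapped with all 3 DKO libraries. The sensor Ddx58, the kinase Eif2ak2 and the ADP-ribosyltransferase Parp14 lay above WT in DKO replicates 1 and 2 and in replicate 3 lay within or below the WT range. Samd9l was the only kept member with a lower mean in DKO (-0.09). The list's 2 most abundant members were Ifi27l2a (499, 473 and 977 RPKM in DKO, 425, 390 and 390 RPKM in WT) and Ifi47, which overlapped and differed by -0.13 without DKO replicate 3.

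Among the 25 largest differences of protein-coding and long RNA genes whose DKO libraries all lay above WT, 15 were members of the interferon list. Of the others, I830012O16Rik, a near copy of Ifit3, was 2.41, 2.61 and 6.56 RPKM in DKO and 1.83, 1.17 and 2.16 RPKM in WT. The guanylate-binding protein gene Gbp10 was 5.28, 4.62 and 5.88 RPKM in DKO and 3.897, 2.30 and 3.21 RPKM in WT. Both were picked after their values were seen.

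Promoters of the interferon list carried the ISRE core more often than promoters at large. The core searched was TTTCNNTTTC, where N is any base, on either strand, in RefSeq windows from 250 bases before to 50 bases after each start on GRCm38.p6. A promoter was given for 25 kept list members, of which 13 (52%) held it, against 3.79% of 7758 kept genes and 3.44% of all 32851 promoters. Among list members whose libraries did not overlap the share was 52.9% (9 of 17), and among the 166 other genes with no overlap and higher values in DKO it was 5.42%. The effector and memory list held it in 2 of 22 promoters (9.09%). The interferon list was made of interferon-response genes, so that its share describes the list and not a difference between the genotypes. In a check of 9834 promoters, the bases after the start lay in a transcript start of the gene in 6815. The stretches below are upstream of the start, with the cores in capitals. They are shown for Ifit1, Ifit3, Isg15 and Rsad2, whose libraries did not overlap, and for Stat2, whose libraries overlapped. Ifit1 (chr19:34640760-34640838, plus strand) and Ifit3 (chr19:34583348-34583441, plus strand) hold 2 cores, Isg15 (chr4:156200850-156200921, minus strand) 3 that overlap, Rsad2 (chr12:26456538-26456597, minus strand) and Stat2 (chr10:128270251-128270310, plus strand) 1.
Ifit1: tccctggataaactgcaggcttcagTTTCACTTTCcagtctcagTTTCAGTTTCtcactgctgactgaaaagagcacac
Ifit3: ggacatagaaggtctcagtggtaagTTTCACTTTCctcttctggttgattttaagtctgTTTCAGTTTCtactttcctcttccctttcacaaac
Isg15: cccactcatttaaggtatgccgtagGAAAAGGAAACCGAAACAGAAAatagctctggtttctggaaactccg
Rsad2: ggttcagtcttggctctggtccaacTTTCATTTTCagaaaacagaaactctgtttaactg
Stat2: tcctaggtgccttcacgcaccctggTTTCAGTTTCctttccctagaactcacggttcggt

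Effector and memory genes stood lower in DKO. The table holds 35 genes of this list, and 26 were kept. Of these, 6 lay below WT in every DKO library (background 2.19%) and 0 above, and the median difference was -0.22. Without DKO replicate 3, 13 of 26 lay below all WT values (background 9.84%) and 1 above, with a median of -0.28. The median was -0.13 without DKO replicate 2 and -0.16 without DKO replicate 1. By library the medians were -0.19, -0.33 and -0.09 in DKO replicates 1 to 3 and -0.05, 0.10 and -0.06 in WT. The median of DKO replicate 3 depended on the scaling. It was -0.05 with quantile normalisation and -0.31 after rescaling without ribosomal protein and short RNA rows. As a sum, which the abundant members dominate, the 35 genes came to 1505, 1347 and 2151 RPKM in DKO and 1699, 1843 and 1640 RPKM in WT, so that DKO replicate 3 lay above all WT libraries and the other DKO libraries below them. No member passed the test.

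S100a4, a calcium-binding protein of motile and memory T cells, had the largest gap. It was 5.59, 2.44 and 1.71 RPKM in DKO and 13.3, 19.1 and 8.67 RPKM in WT, and the highest DKO value lay below the lowest WT value. The difference was -1.83 ± 0.67 (unadjusted p = 0.0153, limma) and -1.56 ± 0.75 without DKO replicate 3. Its family member S100a6 was 4.92, 2.25 and 2.58 RPKM against 5.39, 9.50 and 5.16 RPKM (-0.86 ± 0.52). S100a10 and S100a11 overlapped.

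Cd44, the hyaluronan receptor used to separate memory from naive T cells and not named in this sort, was 7.14, 7.88 and 5.15 RPKM in DKO and 9.31, 10.1 and 12.7 RPKM in WT (-0.61 ± 0.19, unadjusted p = 0.00642, and -0.45 ± 0.20 without replicate 3, limma). Anxa2, a membrane-binding annexin that pairs with S100A10, differed by -0.66 ± 0.26, and by -0.68 ± 0.30 without replicate 3. The scaffold Ahnak was 4.41, 3.96 and 1.23 RPKM in DKO and 6.44, 6.55 and 6.04 RPKM in WT, so that DKO replicate 3 lay furthest from WT and the difference was -0.91 ± 0.43 with it and -0.50 ± 0.43 without it. Itgb1, the β1 integrin, was 17.96, 14.2 and 12.3 RPKM against 21.0, 23.1 and 21.9 RPKM (-0.55 ± 0.34).

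The other 20 members overlapped. The 2 most abundant, Crip1 and Vim, lay below all WT values in DKO replicates 1 and 2 (453 and 365 RPKM against 456 to 558 RPKM for Crip1, 216 and 184 RPKM against 253 to 286 RPKM for Vim), and above them in DKO replicate 3 (776 and 289 RPKM). Itga4, the α4 integrin, was the exception in the other direction, at 83.8 and 89.1 RPKM in DKO replicates 1 and 2 and 73.8 to 82.1 RPKM in WT, with 26.5 RPKM in DKO replicate 3. Markers of NK cells, which share Il2rb and cytotoxic genes with effector T cells, summed to 29.5, 30.5 and 29.5 RPKM in DKO and 31.8, 40.3 and 32.4 RPKM in WT over 11 genes, below WT in every DKO library. Of these 11 only Il2rb and Klrd1 were kept, and both overlapped between the genotypes. Il2rb, also in the effector list, had a lower mean in DKO (-0.67) and Klrd1 a higher one (0.30). Ncr1, Klrb1c and Klrk1 were under 0.2 RPKM in all 6 libraries. The part of NK cell markers in the effector difference was not tested. The cytotoxic genes Gzma and Prf1, and Eomes, overlapped with differences of 0.22, -0.13 and -0.08.

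**Figure D3:**
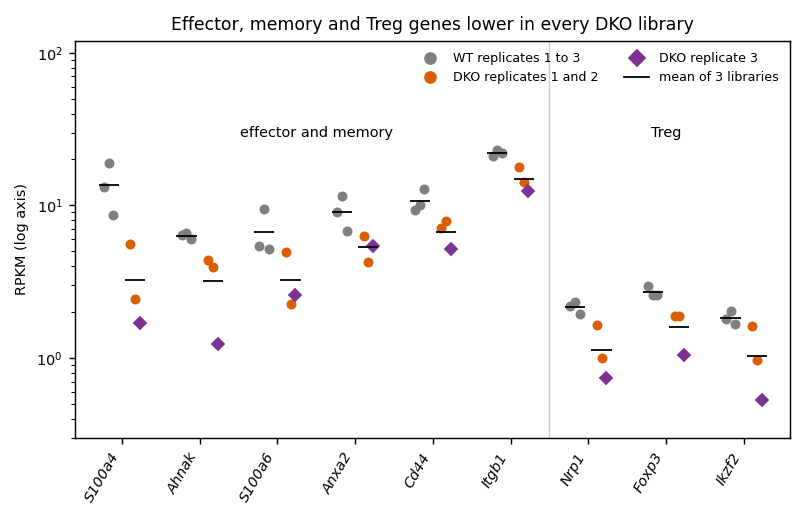
RPKM (log axis) of the 6 effector and memory genes and 3 Treg genes with every DKO library below every WT library. Points are single libraries (grey WT, orange DKO replicates 1 and 2, purple diamonds DKO replicate 3) and bars are means of 3. All values are under 25 RPKM, and the 3 Treg genes lie under 3 RPKM in all 6 libraries.

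Genes of regulatory T cells, which the CD25-negative gate removes in large part, had a lower list median in DKO, while their summed level overlapped between the genotypes. Of 11 kept, 3 lay below WT in every DKO library (27.3%, against 2.19% of all rows), 0 above, and the median difference was -0.34 (-0.26 without DKO replicate 3). With that library left out, 4 lay below all WT values (background 9.84%) and 1 above (background 8.04%). By library the medians were -0.14, -0.36 and -0.84 in DKO replicates 1 to 3 and 0.06, 0.11 and -0.08 in WT. As a sum, which the abundant members dominate, the 18 genes in the table came to 220, 203 and 255 RPKM in DKO. In WT the sum was 247, 289 and 244 RPKM. Foxp3, the lineage factor, was 1.88, 1.89 and 1.04 RPKM in DKO and 2.96, 2.59 and 2.596 RPKM in WT (-0.53 ± 0.29). Ikzf2 was 1.61, 0.971 and 0.527 RPKM against 1.79, 2.02 and 1.66 RPKM. Nrp1 was 1.64, 1.00 and 0.737 RPKM against 2.197, 2.33 and 1.93 RPKM (-0.59 ± 0.28). The most abundant members, Folr4 and Tnfrsf18, overlapped (79.6 to 118 against 105 to 134 RPKM, and 47.0 to 83.2 against 54.9 to 66.3 RPKM). Whether the share of regulatory or memory cells passing the gate differed between libraries was not tested.

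Of 28 cell cycle genes kept, 3 lay below WT in every DKO library (10.7%, against 2.19% of all rows) and 0 above, with a median of -0.11. With DKO replicate 3 left out, 7 lay below (background 9.84%) and 0 above, with a median of -0.17. The 34 genes of the list in the table summed to 708, 738 and 749.5 RPKM in DKO and 721, 884 and 716 RPKM in WT. The 2 most abundant overlapped, the cell cycle inhibitor Cdkn1b (121 to 148 against 121 to 140.1 RPKM) and the cyclin Ccnd3 (97.6 to 117 against 97.0 to 128 RPKM). Mki67, a marker of cycling cells, was 1.19, 1.22 and 0.645 RPKM in DKO and 1.51, 5.42 and 1.93 RPKM in WT (-0.85 ± 0.34), with WT replicate 2 far above the other libraries, and the difference was -0.44 without that library. The same library was the highest in Bub1b, a spindle checkpoint kinase outside the list (0.879, 0.484 and 1.01 against 1.14, 2.75 and 1.12 RPKM), whose difference was -0.53, and -0.26 without that library. With DKO replicate 3 left out instead, the differences were -0.71 ± 0.39 for Mki67 and -0.62 ± 0.23 for Bub1b. By library the list's median lay at 0.24 in WT replicate 2, at -0.08 and -0.17 in the other WT libraries, and between -0.18 and -0.12 in DKO.

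Other lower genes named by p and lack of overlap were P2rx7, the ATP-gated channel of T cells (9.01, 6.99 and 4.99 against 9.65, 13.4 and 13.3 RPKM), Gng2, a G protein subunit (-0.35 ± 0.13), and Scd2, a fatty acid desaturase (17.3, 15.2 and 14.2 against 19.7, 21.3 and 19.6 RPKM, -0.36 ± 0.14). Without DKO replicate 3 the differences were -0.54 ± 0.29 for P2rx7, -0.38 ± 0.15 for Gng2 and -0.30 ± 0.16 for Scd2. Scd2 and Nsdhl were the 2 of 22 cholesterol and lipid synthesis genes with no overlap, both lower (9.09%, against 2.19% of all rows), and 0 were higher. Without DKO replicate 3, 6 of the 22 lay below all WT values (background 9.84%) and 0 above.

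The T helper lineage lists had median differences of -0.12 (Th1), -0.07 (Th2), -0.14 (Th17) and -0.04 (Tfh). Without DKO replicate 3 these were 0.02, 0.04, 0.01 and -0.03. Of 9 Th2 genes kept, Ccr4 (0.995, 0.696 and 0.362 against 1.23, 2.18 and 2.15 RPKM) and Maf (3.29, 2.68 and 1.27 against 3.86, 3.42 and 3.49 RPKM) lay below WT throughout. These were 22.2% of the list, against 2.19% of all rows, and 0 lay above. Ccr4 passed the level filter through the WT libraries alone. Its lack of overlap was therefore fixed by the filter and is no support for a difference. Without DKO replicate 3, 2 lay below (background 9.84%) and 1 above (background 8.04%). Gata3, the Th2 factor and a known target of miR-27, overlapped at 29.8, 30.0 and 25.6 RPKM in DKO and 29.5, 26.9 and 22.6 RPKM in WT (0.11 ± 0.23, and 0.19 ± 0.27 without replicate 3). Of 12 Tfh genes kept, 2 lay below WT in every DKO library (16.7%), Maf among them, and 0 above. Without DKO replicate 3, 2 Tfh genes lay below and 1 above. The 8 Th1 and 4 Th17 genes kept had 0 members with no overlap. Tcf7, the most abundant of the 24 naive and quiescence genes, overlapped (735 to 948 against 873 to 979 RPKM).

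**Figure D4:**
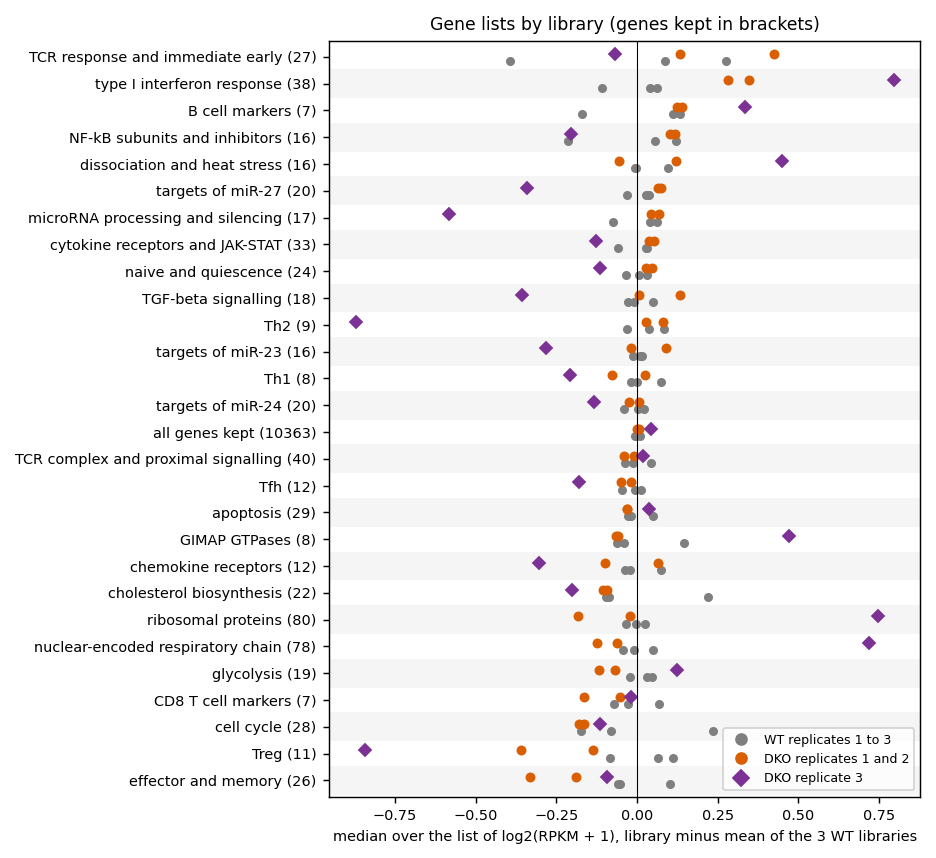
Median over each gene list of the difference from the mean of the 3 WT libraries in log2(RPKM + 1), by library, for the lists with 7 or more genes kept (number in brackets) and for all genes kept. Grey points are WT libraries, orange points DKO replicates 1 and 2, and purple diamonds DKO replicate 3. The interferon list has all 3 DKO libraries right of all WT libraries (0.28 to 0.79), and the Treg and the effector and memory lists have them left (-0.84 to -0.14 and -0.33 to -0.09).

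Genes induced by T cell receptor signalling varied between libraries of both genotypes, with more means higher than lower in DKO. The median difference over the 27 kept was 0.19, with 18 means higher, and without DKO replicate 3 it was 0.32, with 24 higher. By library the medians were 0.13, 0.42 and -0.07 in DKO replicates 1 to 3 and 0.27, 0.09 and -0.39 in WT, so that the genotypes overlapped. Of the 27, 2 lay above WT in every DKO library, Cd69 (241, 316 and 262 against 216, 220 and 170 RPKM, 0.44 ± 0.34) and Egr2 (8.48, 10.9 and 7.98 against 7.48, 7.96 and 6.97 RPKM), and 0 below. These were 7.41% of the list, against 2.50% of all rows. With DKO replicate 3 left out, 3 lay above (background 8.04%) and 1 below (background 9.84%). In some members both replicates 3 were low. Tnfaip3, an inhibitor of NF-kB, was 698, 849 and 243 RPKM in DKO and 678, 651 and 286 RPKM in WT. Dusp5, Fosb and Nr4a2 followed the same pattern (23.8 and 25.5, 79.9 and 61.4, and 1.98 and 1.25 RPKM in replicates 3 of DKO and WT). In replicates 1 and 2 of both genotypes Dusp5 was at least 89.3, Fosb at least 199.5 and Nr4a2 at least 6.39 RPKM. Over the 16 NF-kB subunits and inhibitors kept, the medians were -0.21 in DKO replicate 3 and -0.21 in WT replicate 3. Dusp5, Fosb and Nr4a2 were picked after their values were seen.

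With all 3 DKO libraries, genes reported in the literature as targets of the 3 microRNAs did not stand higher in DKO, and the direction depended on DKO replicate 3. Of 16 kept targets of miR-23, 20 of miR-24 and 20 of miR-27, 0 lay above WT in every DKO library (background 2.50%). E2f2 and Ccr4 of the miR-24 list lay below, 10% of that list (background 2.19%). For Ccr4 this was fixed by the level filter, as stated above. The medians were -0.05, -0.04 and -0.06, and 3, 7 and 7 targets had higher means in DKO. Without DKO replicate 3 the medians were 0.03, 0.02 and 0.06, and 11, 11 and 17 targets had higher means. In that setting 3, 1 and 4 targets lay above all WT values (background 8.04%) and 0, 3 and 0 below (background 9.84%). Those above include Bcl2l11, the proapoptotic BIM (28.04 and 30.5 RPKM against 23.7, 23.9 and 24.8 RPKM), Tab3 and Apaf1, the apoptosome scaffold (10.3 and 10.3 RPKM against 9.78, 9.88 and 9.41 RPKM). In DKO replicate 3 Bcl2l11 was 18.6, Tab3 3.37 and Apaf1 6.25 RPKM, each below all WT values.

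Seed sites were counted in the longest annotated 3′ UTR of 9701 kept genes. A site was a match to bases 2 to 8 of the microRNA, or to bases 2 to 7 followed by an adenine, on the strand of the transcript, and overlapping matches of both kinds were counted once. For miR-23 the first kind reads AATGTGA and the second ATGTGAA. For miR-27 the first kind reads ACTGTGA and the second CTGTGAA. For miR-24 the first kind reads CTGAGCC and the second TGAGCCA. There were 2360 genes with a miR-23 site, 2783 with a miR-27 site and 2570 with a miR-24 site, 474 with sites of all 3 families and 4524 with none.

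The direction of genes with sites depended on DKO replicate 3. Without it the median difference was -0.02 for genes with no site, 0.01, 0.02 and 0.04 for genes with sites of 1, 2 and 3 families. With all 3 DKO libraries the medians were 0.05, 0.00, -0.05 and -0.07, in the opposite order. In DKO replicates 1 and 2, 13.3% of the genes with sites of all 3 families lay above all WT values and 5.49% below, against 6.17% above and 12.8% below for genes with no site (7.80% and 10.2% over all 9701).

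The number of sites moves with the length of the 3′ UTR, whose median was 568 bases in genes with no site and 3882 bases in genes with sites of all 3 families. Genes were therefore divided by 3′ UTR length into 3 groups of equal size. In DKO replicate 3 the medians of the short, middle and long group were 0.32, 0.03 and -0.23, against -0.06, 0.00 and 0.04 in DKO replicate 2 and 0.00, 0.00 and 0.01 in DKO replicate 1. The 3 WT libraries lay between -0.01 and 0.02 in every group. Within the long group, genes with and without a site of any family had medians of 0.01 and 0.00 in DKO replicate 1, 0.04 and 0.02 in DKO replicate 2, and -0.25 and -0.13 in DKO replicate 3. Genes with a site in that group had the longer UTRs still, with a median of 3008 bases against 2338. The part that UTR length has in the difference between genes with and without sites was not tested beyond these groups.

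**Figure D5:**
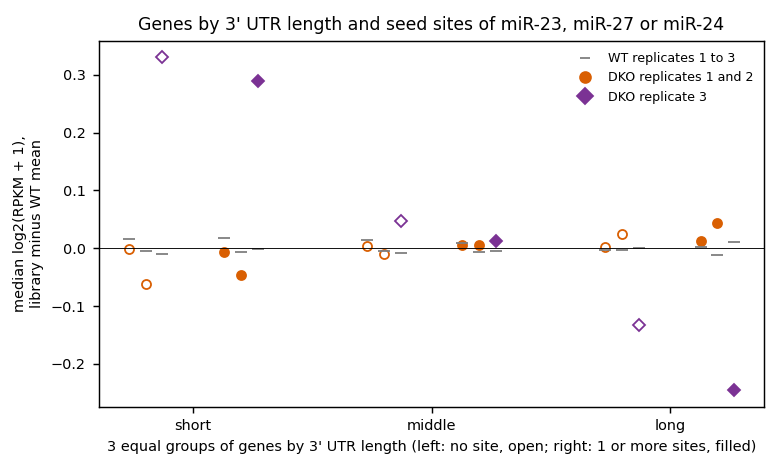
Median difference from the mean of the 3 WT libraries in log2(RPKM + 1) for genes in 3 equal groups of 3′ UTR length, without (open) and with (filled) a seed site of miR-23, miR-27 or miR-24. Orange circles are DKO replicates 1 and 2, purple diamonds DKO replicate 3 and grey dashes the WT libraries. DKO replicate 3 runs from 0.33 and 0.29 in the short group to -0.13 and -0.25 in the long one, and the other 5 libraries stay within 0.07 of 0.

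The sorted cells carried Cd4 and little Il2ra, and single libraries stood apart in some markers of other cell types. Cd4 was 471, 459 and 334 RPKM in DKO and 506, 481 and 404 RPKM in WT, Cd3e 298 to 387 and 308 to 363 RPKM, and Il2ra, which encodes CD25, 0.408 to 0.733 and 0.522 to 1.05 RPKM. The summed level of 18 B cell markers was 49.5 to 66.4 RPKM in DKO and 38.2 to 57.3 RPKM in WT, that of 12 myeloid markers 12.6 to 21.0 and 11.4 to 21.2 RPKM, and that of 12 neutrophil markers under 1 RPKM in every library. Cd14, Csf1r, Emr1, Csf3r and 7 other myeloid and neutrophil markers were under 0.1 RPKM in all 6 libraries. The 10 dendritic cell markers summed to 107, 125 and 233 RPKM in DKO and 103, 90.7 and 103 RPKM in WT. Nearly all of this was Bst2, itself an interferon-response gene, and Siglech of plasmacytoid cells, Xcr1 and Clec9a were under 0.1 RPKM in all 6 libraries. The 10 CD8 T cell markers summed to 96.9, 88.9 and 151 RPKM in DKO and 97.8, 91.7 and 106 RPKM in WT, with DKO replicate 3 the highest. Most of this was the protease Ctsw (99.6 RPKM in DKO replicate 3, 50.0 to 64.2 RPKM in the others), and Cd8a was 0.211 to 0.530 RPKM. The 11 erythroid and platelet markers summed to 27.5 RPKM in WT replicate 2 and 2.14 to 11.1 RPKM in the others, mostly the globin gene Hbb-b1 (17.95 RPKM in WT replicate 2). The T cell genes of the receptor complex and its proximal signalling summed to 7630 to 9184 RPKM in DKO and 7695 to 8204 RPKM in WT.

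The same gene groups are given side by side for cluster Tg naive T cells, which were set against the same 3 WT libraries. The interferon list had a median of 0.88 in cluster Tg against 0.43 in DKO, so that both lay above WT. The effector and memory list had a median of 1.06 in cluster Tg against -0.22 in DKO. S100a4 was 153 ± 66.8 RPKM (SD, n = 3) in cluster Tg, 13.7 ± 5.22 in WT and 3.25 ± 2.07 in DKO. Cd44 was 21.6 ± 2.76, 10.7 ± 1.79 and 6.73 ± 1.41 RPKM in the same order, and Ifit1 44.7 ± 4.35, 14.1 ± 2.59 and 26.6 ± 9.63 RPKM. Because the WT libraries are shared, a deviation of WT would move both differences together. In the other genotypes the interferon list lay between -0.24 and -0.07 in the 3 miR-23 Tg libraries, between -0.04 and 0.31 in miR-24 Tg and between 0.61 and 1.40 in miR-27 Tg.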

How the data were processed

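The authors deposited 1 table of RPKM values per gene and library, with mm9 as the build and STAR 2.2.0c and HOMER as tools, per the submitters' processing notes. What each tool did, which gene models were used, whether strand was used and how shared reads were counted are not stated there. Total read numbers are unknown, and no counting interval is given. In 212 rows a value above 0 was under 1e-05 RPKM, too small for any read, so an entry of 0 is described as listed at 0. In miR-23 Tg, 2 columns share a header name and were used as members of that genotype without a replicate number.

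Tests used log2(RPKM + 1), which understates the change of low genes. A linear model (limma 3.58.1, R 4.3.3, lmFit and eBayes with a variance trend) with genotype as the term was fitted to the 10363 rows in all 18 libraries, and again in 17 without DKO replicate 3. A call is a Benjamini-Hochberg adjusted p under 0.05 over all rows. An exact permutation test of 3 libraries against 3 cannot go below 0.1. The script was tested on simulated data. Genes were named by a rule: the targeted hairpins and host gene, then up to 10 in each direction with the smallest unadjusted p and no overlap where none was called, then the 2 most abundant members of each list. Others named were picked for their values or role. The members and lists were chosen with earlier results of these data known. Alternatives were the fit of the 6 libraries, array weights, a robust prior, other pseudocounts, filters and scalings, a replicate block, and leaving out each library. Leaving out short RNA rows was chosen after seeing the data. UTRs came from GENCODE M21 and promoters and microRNAs from RefSeq, both on GRCm38 and matched by symbol. Values of some list members are not reported here.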

Additional observations from a re-analysis of the deposited data

How the results depend on the processing

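With all 3 DKO libraries, 0 rows were called except in the fit of the 6 libraries (4), with array weights (3: Dclk2 higher, Mir6921 and Mir6907 lower) and, as given below, with the block. Leaving out each of the 6 libraries in turn gave 0 calls each time. Without DKO replicate 3, where 0 were called, the fit of the 5 remaining libraries called 6, all short RNAs, array weights 3 (Dclk2 and Gm16907 higher, Rps3a1 lower), quantile normalisation 1 (Dclk2), and the fit without miR-27 Tg replicate 3 called 2 (Dclk2 and Rps3a1). Leaving out each further library gave 0 to 1 calls, the 1 being Mir6921 without DKO replicate 1, Mir1930 without WT replicate 1 and Mir5619 without WT replicate 3. With short RNA rows left out, 0 were called in either fit. The differences of the 20 genes named by p kept their direction under every alternative run, and so did the medians of the interferon list (0.43, 0.43 with quantile normalisation and 0.36 after rescaling without ribosomal protein and short RNA rows) and of the effector and memory list (-0.22, -0.30 with quantile normalisation, -0.28 after rescaling, and -0.29 to -0.13 on leaving out each DKO or WT library). That rescaling moved the median of all genes in DKO replicate 3 from 0.04 to -0.17. Absolute depth is unknown, and rows of a few steps, such as hairpins, carry no more precision than their steps.

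Replicate numbers are shared by DKO and WT. The deviations of same-numbered libraries from their group means correlated at 0.13, 0.06 and 0.11 for numbers 1, 2 and 3, each the highest for its number, and the labels do not say that a number marks a shared litter or day. With the replicate number as a block, in the fit of the DKO and WT libraries, 3 rows were called with all DKO libraries (Mir6937, Mir7016 and Scarna2) and 8 without DKO replicate 3, all short RNAs.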
